A study of Mus musculus with 2 samples.

Results

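The genes described here are 50 genes of mitosis and the spindle, named by symbol and read from the spliced UMI counts of single cells; all 50 were found among the 54736 gene symbols counted. They comprise 11 genes of mitotic entry, 10 of the spindle checkpoint and kinetochore, 4 of the chromosomal passenger complex, 9 of the spindle and its microtubules, 8 of the midzone and cytokinesis, 3 of anaphase and mitotic exit, and 5 of chromosome structure. The cells are the 63.3 line, a mouse acute myeloid leukemia line. Cells of 10 cultures were marked with MULTI-seq lipid-anchored barcodes, pooled and loaded together for 10x Genomics single-cell RNA sequencing, and the pool was sequenced in 2 runs. In the brequinar arm, cells received 2 µM brequinar, an inhibitor of the pyrimidine synthesis enzyme DHODH, for 6, 12, 24 or 48 h. In the withdrawal arm, cells were washed and placed in medium lacking beta-estradiol for 6, 12, 24 or 48 h. Each arm had its own 0 h culture. All cultures came from medium with 0.5 µM beta-estradiol and with stem cell factor from a conditioned medium of Chinese hamster ovary cells. The wash that began withdrawal was not part of the brequinar protocol, no untreated culture was taken at a later time, and whether solvent was added to the 0 h culture of the brequinar arm is not stated. Each of the 10 conditions is 1 culture of 1 line, so no difference between conditions has a replicate check and none was tested.

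A cell enters mitosis when CDK1, bound to cyclins A and B and released by CDC25 phosphatases, phosphorylates its substrates, with Polo-like kinase 1 and Aurora A acting beside it. Kinetochores then bind spindle microtubules, the spindle checkpoint holds the anaphase-promoting complex back until every chromosome is attached, and that complex, with CDC20 and the E2 enzyme UBE2C, destroys securin and cyclin B so that sister chromatids part and the cell divides. Most of these genes are transcribed late in the cell cycle, so the level of their RNA in a culture depends both on how many cells are near mitosis and on how much RNA each holds; in summed counts these cannot be told apart.

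The 12540 cells used gave 528 to 1536 cells and 5236694 to 19931921 spliced UMIs per condition, with a median of 6509 to 15229 UMIs per cell. Levels are UMIs per 1000000 of the condition's summed UMIs (CPM), and 3 counts, the floor for a gene with none, stand at 0.151 to 0.573 CPM. Of 10 myeloid progenitor markers, 8 to 10 reached 20 CPM at 0, 24 and 48 h, while T cell markers summed to at most 0.654 CPM with Cd4 at 0 throughout and erythroid markers to at most 17.1 CPM. Other lists moved with treatment. The 4 megakaryocyte markers summed to 31.5, 24.4, 32.8, 123 and 179 CPM in order of time of brequinar, with 0 of 4 at 20 CPM at 0 h and 3 of 4 at 24 and 48 h, and the 8 neutrophil markers to 293, 523, 504, 488 and 1509.7 CPM, with 3, 4 and 5 of 8 at 20 CPM at 0, 24 and 48 h. The 4 B cell markers summed to 67.3, 74.3, 85.7, 179 and 112 CPM with brequinar. Of them, 1 reached 20 CPM at 0 h and 2 at 24 and 48 h. The part of these lists in the higher values at 24 and 48 h of brequinar was not tested. Cells with 10% or more mitochondrial UMIs made up 18.4, 16.2, 18.8, 3.79 and 1.70% of the brequinar cultures in order of time and 16.6, 22.2, 22.7, 16.2 and 3.12% of the withdrawal cultures. Barcodes of 2 to 100 UMIs, which hold mostly free RNA, carried the 50 genes at 6759.8 CPM in sum, near the level in the 0 h cells, so a part of the UMIs in every cell can be free RNA.

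The 50 genes together were lower at 6 h of brequinar and then higher at 24 and 48 h, whereas with withdrawal they stayed near the 0 h level to 12 h and were lower at 48 h, on the CPM scale. In sum they held 6865, 5697, 6413, 9558 and 10159 CPM at 0, 6, 12, 24 and 48 h of brequinar, and 7083, 7288, 7082, 6440.2 and 5609 CPM at the same times of withdrawal. With brequinar, 26 of the 50 genes had their highest level at 24 h, 23 at 48 h and 1, Ccna2, at 0 h. With withdrawal, 18 were highest at 0 h, 21 at 6 h, 8 at 12 h, 2 at 24 h and 1 at 48 h, and 35 were lowest at 48 h. Times of the highest and lowest level were not counted over all genes, so these counts do not set the 50 genes apart. Below, series of 5 values run from 0 to 48 h, ratios set a treated culture against the 0 h culture of its own arm, and the values in parentheses are exact 95% intervals for counting error.

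A gene was counted as higher or lower when it differed by 1.5-fold or more and reached 20 CPM in either culture. Between the 2 cultures at 0 h, none of 48 measured genes of the set was called higher in the brequinar arm or lower, beside 0% and 0.0546% of all 5490 measured genes. At 6 h of brequinar, 4 of 48 were called lower and none higher, where 4.97% of all 5851 measured genes were lower and 8.82% higher. At 12 h, 6 were lower and 1 higher, beside 4.67% lower and 13.5% higher among all genes. At 24 h, 23 of 49 were higher and none lower, against 29.2% higher and 13.8% lower among all genes. At 48 h, 19 of 49 were higher and none lower, against 25.7% and 17.3%. At 1.5-fold, the set's share of higher genes at 24 and 48 h stood above that of all genes and its share of lower genes below it. At a 2-fold mark, 4 of 49 were higher at 24 h and 6 of 49 at 48 h, beside 14.7% and 14.4% of all genes. The set's share was thus lower at 24 h and near that of all genes at 48 h, on few genes.

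With withdrawal, 2 of 48 genes were called higher at 6 h and none lower, beside 12.3% and 8.11% of all measured genes. None was called at 12 h, when 13.4% of all genes were higher and 11.2% lower. At 24 h, 4 were lower and none higher, beside 11.9% and 9.46%. At 48 h, 13 of 49 were lower and 1 was higher, beside 40.7% and 21.5%, so on the CPM scale the set had a smaller share of lower genes than all genes had. Its median log2 ratio there was -0.34, and that of all genes was -0.33. With median-of-ratios size factors the calls at 48 h of withdrawal came to 2 lower and 3 higher of 49, beside 26.8% and 29.1% of all genes, the median of the set moved to -0.04 and that of all genes to -0.01. The 8 neutrophil markers summed to 50832 CPM in that culture, with 7 of 8 at 20 CPM or more, against 357 CPM and 4 of 8 at 0 h; their part in the lower values was not tested.

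Per cell and without scaling, the counts differed, and the median cell of every treated culture held fewer UMIs than that of its 0 h culture. The set summed to 91.0, 59.7, 66.6, 105 and 101 UMIs per cell with brequinar and to 97.5, 70.4, 62.5, 67.4 and 40.0 with withdrawal. On that scale 7 of 49 genes were higher and 2 lower at 24 h of brequinar, where 18.7% of all genes were higher and 24.4% lower. At 48 h, 6 of 49 were higher and 1 lower, beside 14.2% and 38.3%. Per cell, the set's share of higher genes was therefore near or somewhat below that of all genes, on few genes, and its share of lower genes was well below. With withdrawal 33 of 48 were lower at 12 h and 28 of 48 at 24 h, beside 53.5% and 46.6% of all genes. At 48 h of withdrawal 47 of 49 were lower, beside 74.1%, so the set had a larger share of lower genes than all genes there, the reverse of the order on the CPM scale. Fewer genes were thus called higher with brequinar per cell than on the CPM scale, and withdrawal had more lower genes per cell. With median-of-ratios size factors, 18 of 49 were higher and 1 lower at 24 h of brequinar, beside 25.04% and 17.16% of all genes. With the same factors, 19 of 49 were higher and none lower at 48 h, beside 25.3% and 17.7%. The set's median log2 ratio stood above that of all genes on both scales. At 24 h of brequinar it was 0.52 against 0.16 on CPM and 0.26 against -0.09 per cell. At 48 h it was 0.46 against 0.04 on CPM and 0.06 against -0.35 per cell.

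**Figure D1:**
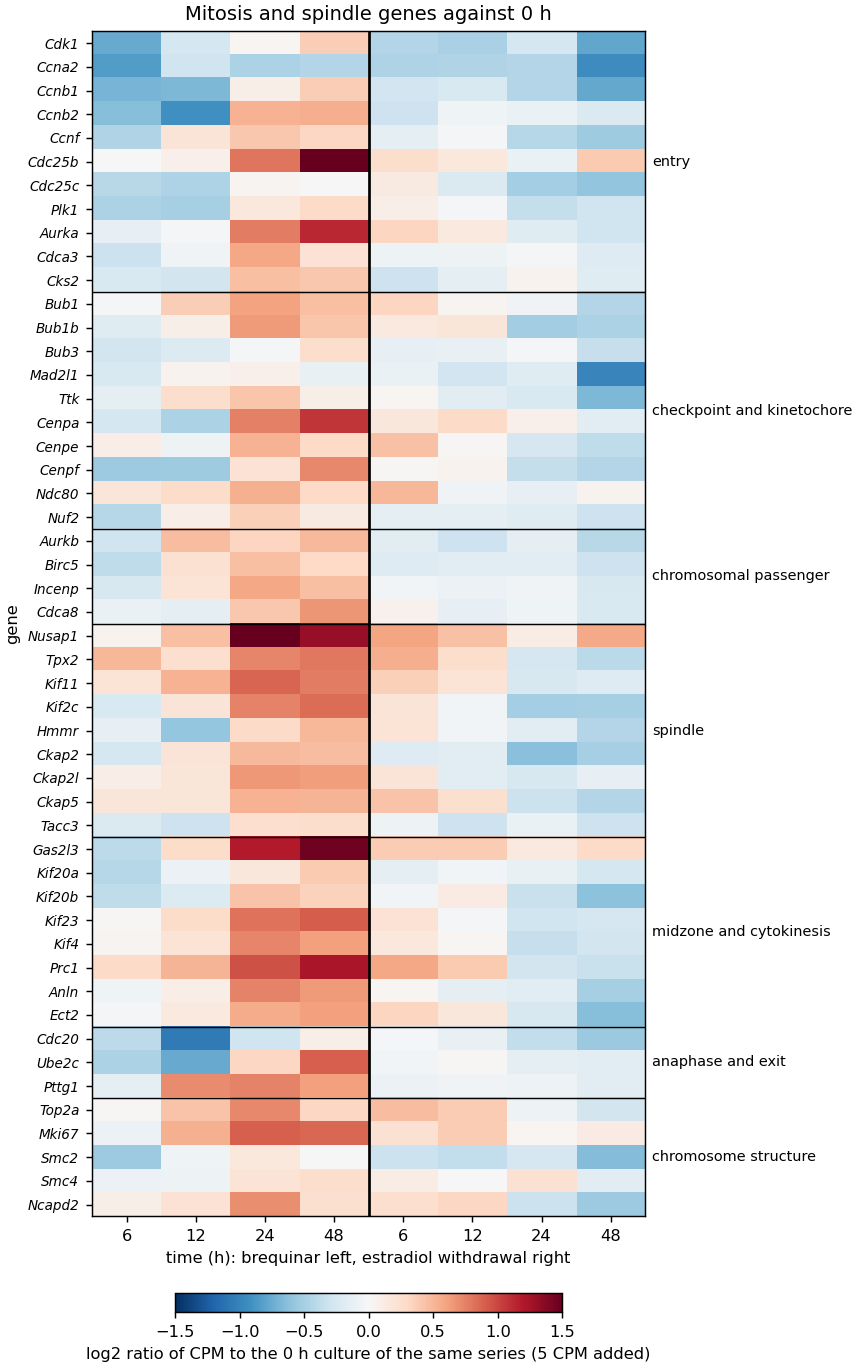
Ratio of CPM to the 0 h culture of the same arm, on a log2 scale with 5 CPM added, for the 50 genes (rows, grouped by role) at 6, 12, 24 and 48 h of each treatment (columns), with 1 culture per condition. Brequinar columns hold lower values for entry genes at 6 h and for Cdc20, Ube2c and Ccnb2 at 12 h, then higher values for most genes at 24 and 48 h; the 48 h withdrawal column is mostly lower, with 5 ratios above 1, those of Nusap1, Cdc25b, Gas2l3, Mki67 and Ndc80.

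Among the entry genes, the A and B cyclins and their kinase had the lowest ratios of the measured genes of the set at 6 h of brequinar. Cdk1, the kinase that drives mitosis, stood at 365, 213, 303, 373 and 473 CPM with brequinar and 396, 291, 281, 330.0 and 228 CPM with withdrawal. Ccna2, cyclin A2, which acts in S phase and early mitosis, stood at 156, 84.6, 126, 111 and 113 CPM with brequinar and 152, 109, 110.3, 111 and 76.6 CPM with withdrawal. Ccnb1, cyclin B1, the main mitotic partner of CDK1, stood at 166, 101, 102, 176 and 216 CPM with brequinar and 182, 148, 154, 133 and 105 CPM with withdrawal. At 6 h of brequinar Ccna2 was 1.84-fold lower (1.72 to 1.97), Cdk1 1.71-fold lower (1.64 to 1.79) and Ccnb1 1.65-fold lower (1.55 to 1.76). The 3 genes then parted: at 48 h Ccnb1 was 1.30-fold higher (1.21 to 1.39) and Cdk1 1.30-fold higher (1.24 to 1.36), whereas Ccna2 was still 1.37-fold lower (1.26 to 1.5). At 48 h of withdrawal Ccna2 was 1.99-fold lower (1.81 to 2.18), Cdk1 1.74-fold lower (1.65 to 1.84) and Ccnb1 1.73-fold lower (1.60 to 1.88), which placed all 3 among the genes called lower.

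Ccnb2, cyclin B2, had its lowest level at 12 h of brequinar rather than 6 h, with 204, 129, 106, 295 and 300.0 CPM with brequinar and 202, 162, 193, 188 and 173 CPM with withdrawal. It was 1.58-fold lower (1.49 to 1.67) at 6 h, 1.94-fold lower (1.83 to 2.05) at 12 h and 1.47-fold higher (1.38 to 1.56) at 48 h. Plk1, Polo-like kinase 1, stood at 74.2, 52.2, 51.3, 83.5 and 91.9 CPM with brequinar and 77.2, 83.3, 75.4, 59.3 and 61.8 CPM with withdrawal, and no ratio of it to 0 h reached 1.5-fold. Aurka, the Aurora kinase of centrosomes and spindle poles, was near its 0 h level to 12 h of brequinar and then higher, with 73.5, 67.3, 72.1, 129 and 166 CPM, 2.26-fold higher (2.08 to 2.46) at 48 h. With withdrawal it stood at 75.3, 95.1, 83.8, 65.6 and 60.3 CPM.

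The CDC25 phosphatases, which activate CDK1, went different ways. Cdc25b stood at 12.1, 12.1, 13.1, 25 and 46.6 CPM with brequinar and 14.1, 17.9, 16.3, 12.8 and 20.1 CPM with withdrawal, and at 48 h of brequinar it was 3.84-fold higher (3.20 to 4.60), the largest ratio of the set at that time. It was also among the 5 genes on the higher side at 48 h of withdrawal, 1.43-fold higher (1.15 to 1.76), short of the 1.5-fold mark. Cdc25c stood at 20.6, 14.2, 13.6, 21.3 and 20.4 CPM with brequinar and 21.6, 24.2, 18.0, 13.7 and 12.7 CPM with withdrawal, which was 1.51-fold lower (1.28 to 1.79) at 12 h of brequinar and 1.58-fold lower (1.33 to 1.89) at 24 h of withdrawal. At 48 h of brequinar Cdc25c was back at its 0 h level, with a ratio of 0.993 (0.795 to 1.23).

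Of the other entry genes, Ccnf and Cdca3 passed the mark in 1 arm each. Ccnf, cyclin F, an F-box protein that marks substrates for destruction, was 1.37-fold higher (1.23 to 1.52) at 24 h of brequinar and 1.54-fold lower (1.30 to 1.83) at 48 h of withdrawal. Cdca3, an F-box-like protein that promotes mitotic entry, was 1.5-fold higher (1.44 to 1.56) at 24 h of brequinar and 1.15-fold lower (1.08 to 1.22) at 48 h of withdrawal. Cks2, a small CDK-binding subunit, was 1.37-fold higher (1.32 to 1.42) at 24 h of brequinar. In all, 4 of 10 measured entry genes were called lower at 6 h of brequinar, 3 of 10 at 12 h, and 3 of 11 were called higher at 24 h. The last is near the 29.2% of all genes, while 4.97% and 4.67% of all genes were lower at 6 and 12 h.

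**Figure D2:**
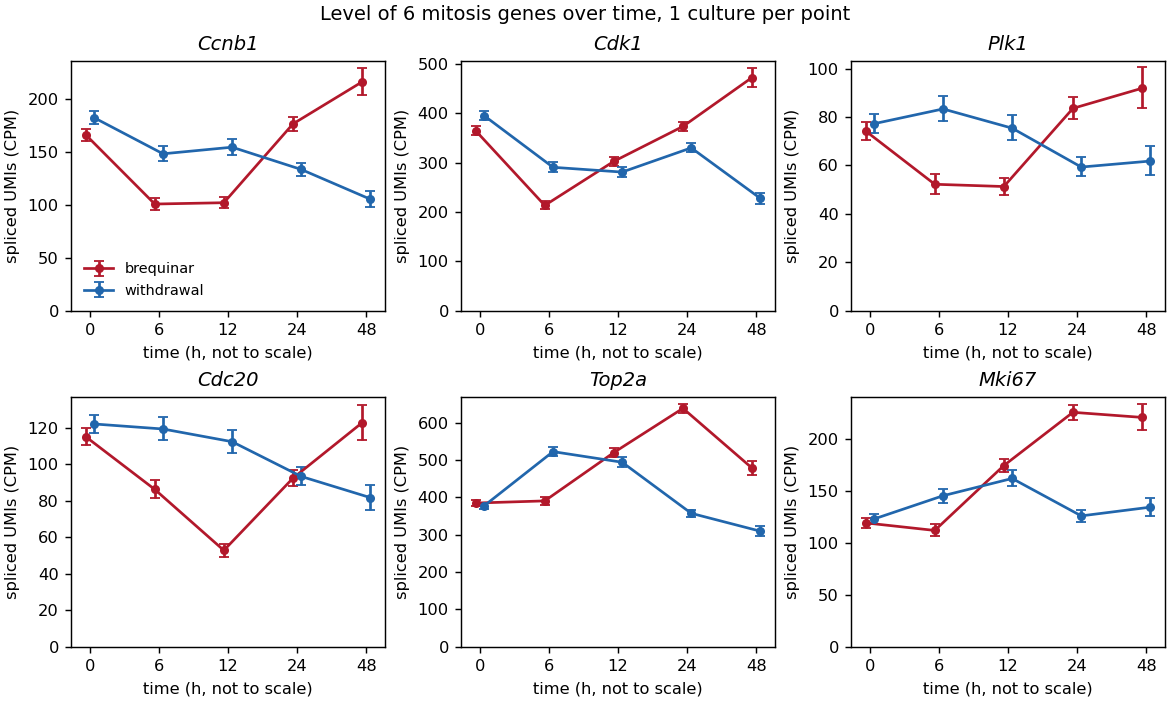
Levels of Ccnb1, Cdk1, Plk1, Cdc20, Top2a and Mki67 in CPM against hours of treatment, with brequinar and withdrawal as separate lines and 1 culture per point; bars are 95% Poisson intervals, which cover counting error only. Cdk1 and Ccnb1 dip at 6 h of brequinar and Cdc20 at 12 h, while Top2a and Mki67 climb from 6 to 24 h.

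The summed genes of anaphase and exit had the lowest ratio to 0 h of any role at 12 h of brequinar, 0.633 (0.615 to 0.652). At 48 h their ratio was 1.72 (1.67 to 1.78). Cdc20, the activator of the anaphase-promoting complex and the target of the spindle checkpoint, stood at 115, 86.3, 52.8, 92.4 and 123 CPM with brequinar and 122, 119, 112, 93.3 and 81.7 CPM with withdrawal. Ube2c, the E2 enzyme of that complex, stood at 540.4, 389, 319, 674 and 1013 CPM with brequinar and 576, 562, 582, 520.1 and 517 CPM with withdrawal. At 12 h of brequinar Cdc20 was 2.18-fold lower (2.01 to 2.36) and Ube2c 1.70-fold lower (1.64 to 1.75), and they were 2.13 and 1.83 times lower than in the 12 h withdrawal culture. At 48 h Ube2c was 1.87-fold higher (1.81 to 1.94), whereas Cdc20 was 1.07-fold higher (0.975 to 1.16).

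Pttg1, securin, the protein that restrains the enzyme separase until anaphase, went the other way. It stood at 40.7, 36.7, 69.7, 71.8 and 64.9 CPM with brequinar and 43.0, 40.1, 41.3, 40.6 and 38.0 CPM with withdrawal. At 12 h of brequinar it was 1.71-fold higher (1.56 to 1.87), the only gene of the set called higher at that time, and it remained 1.76-fold higher (1.61 to 1.93) at 24 h and 1.59-fold higher (1.40 to 1.81) at 48 h. Per cell it held 0.724 UMIs at 12 h of brequinar and 0.540 at 0 h, a smaller difference. Its levels with withdrawal all lay within 38.0 to 43.0 CPM. At 12 h it was 1.69-fold higher (1.51 to 1.89) with brequinar than with withdrawal.

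Because genes of the set went opposite ways at 12 h of brequinar, the promoters of some genes, from several roles, are shown for comparison of the letters they hold. The windows are 300 bases long, from 250 bases before to 50 after each gene's start in RefSeq on GRCm38.p6, and 43 of the 50 genes were matched, with 46 windows. The elements known from promoters of late cell cycle genes were searched on both strands: the cell cycle genes homology region (CHR), as TTTGAA or TTCGAA, and the CCAAT box, as CCAAT; CCAATTGG holds a CCAAT on each strand and was counted as 2. The stretches below lie before the start, read 5′ to 3′ in the direction of the gene, with the letters of both elements in capitals. Cdc20, Ccnb2 and Ube2c were lower at 12 h of brequinar.
Cdc20, chr4:118437344-118437411, minus strand: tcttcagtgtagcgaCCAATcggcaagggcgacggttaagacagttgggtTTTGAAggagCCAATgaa
Ccnb2, chr9:70421556-70421736, minus strand: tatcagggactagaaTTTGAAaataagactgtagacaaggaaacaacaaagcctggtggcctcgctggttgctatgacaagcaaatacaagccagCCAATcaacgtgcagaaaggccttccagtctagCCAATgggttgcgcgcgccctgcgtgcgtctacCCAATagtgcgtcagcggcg
Ube2c, chr2:164769686-164769920, plus strand: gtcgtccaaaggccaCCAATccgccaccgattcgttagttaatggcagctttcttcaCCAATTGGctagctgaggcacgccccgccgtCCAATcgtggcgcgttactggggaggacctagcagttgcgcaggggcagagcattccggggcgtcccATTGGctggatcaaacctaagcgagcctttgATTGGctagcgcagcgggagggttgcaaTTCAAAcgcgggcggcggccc
Kif11, Mki67 and Top2a were on the higher side at that time, by 1.46, 1.46 and 1.35 times.
Kif11, chr19:37376322-37376381, plus strand: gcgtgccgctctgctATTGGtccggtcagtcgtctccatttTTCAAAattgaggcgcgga
Mki67, chr7:135716457-135716582, minus strand: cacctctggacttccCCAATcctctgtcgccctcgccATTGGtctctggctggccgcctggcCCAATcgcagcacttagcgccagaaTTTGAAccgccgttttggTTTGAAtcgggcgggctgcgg
Top2a, chr11:99024192-99024431, minus strand: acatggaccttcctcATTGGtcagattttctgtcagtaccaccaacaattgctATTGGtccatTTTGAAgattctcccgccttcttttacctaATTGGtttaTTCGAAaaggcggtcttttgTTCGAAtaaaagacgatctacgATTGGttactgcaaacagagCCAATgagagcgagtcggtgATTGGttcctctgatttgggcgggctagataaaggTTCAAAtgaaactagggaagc
Gas2l3 and Prc1 had ratios among the 4 largest at both 24 and 48 h of brequinar, as had Nusap1 and Cdc25b, which are not printed.
Gas2l3, chr10:89443968-89443999, minus strand: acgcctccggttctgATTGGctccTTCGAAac
Prc1, chr7:80294399-80294466, plus strand: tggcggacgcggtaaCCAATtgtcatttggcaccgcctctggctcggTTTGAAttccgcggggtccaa
All 8 printed stretches hold both elements before the start, but they were chosen for that comparison. Of the 6 genes called at 12 h of brequinar that have a window, 3 hold both before the start: Ccnb1 has no CHR letters in its window, Hmmr has none before its start and Pttg1 has neither element. Prc1 has another RefSeq start, before which no CHR letters lie. Over all windows of the set, the CHR letters were in 37 of 46 (80.4%) and the CCAAT letters in 36 (78.3%), against 19.2% and 37.4% of 32851 RefSeq windows of the same length. Both elements were in 33 windows (71.7%), against 7.52% of all windows and 30.5% of 82 windows of other mitosis genes. Genes with the CHR letters had a median ratio of 1.12 at 12 h of brequinar over 33 genes, with a range of 0.459 to 1.49, and those without had 1.03 over 9 genes, with a range of 0.613 to 1.71, so the ranges overlapped. Nusap1 and Pttg1 hold neither element in their windows, and Cdc25b has a CCAAT but no CHR letters before its start. A match is a run of letters and not a shown binding site.

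Among the checkpoint and kinetochore genes, Cenpa and Cenpf had the largest ratios at 48 h of brequinar. Cenpa, the histone H3 variant that marks centromeres, stood at 679.7, 565, 489, 1152 and 1440.0 CPM with brequinar and 687, 774, 842, 724 and 615 CPM with withdrawal, which was 2.12-fold higher (2.06 to 2.18) at 48 h of brequinar after 1.39-fold lower (1.35 to 1.43) at 12 h. Cenpf, a large outer kinetochore protein, was 1.48-fold lower (1.40 to 1.57) at 6 h and 1.67-fold higher (1.57 to 1.76) at 48 h of brequinar. Cenpe, a kinetochore motor, was 1.37-fold higher (1.28 to 1.46) at 6 h of withdrawal and 1.45-fold higher (1.37 to 1.54) at 24 h of brequinar. Ndc80 and Nuf2, partners in the complex that binds microtubules, were 1.51-fold higher (1.36 to 1.68) and 1.30-fold higher (1.21 to 1.40) at 24 h of brequinar.

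The checkpoint kinases and their partners had their highest brequinar levels at 24 h in 4 of 5 cases. Bub1b, BUBR1, which inhibits CDC20, stood at 50.5, 44.0, 54.1, 81.2 and 69.1 CPM with brequinar and 51.6, 57.7, 59.1, 34.4 and 35.7 CPM with withdrawal, 1.61-fold higher (1.48 to 1.74) at 24 h of brequinar and 1.5-fold lower (1.35 to 1.67) at 24 h of withdrawal. Bub1, the kinase that recruits checkpoint proteins to kinetochores, was 1.56-fold higher (1.46 to 1.67) at 24 h of brequinar. Ttk, the kinase MPS1, stood at 24.8, 22.2, 30.9, 34.8 and 26.5 CPM with brequinar and 24.3, 24.9, 21.3, 20.1 and 13.4 CPM with withdrawal and was 1.81-fold lower (1.45 to 2.30) at 48 h of withdrawal. Mad2l1, MAD2, which binds CDC20, stood at 117, 99.4, 121, 123 and 108 CPM with brequinar and 116, 107, 93.8, 102 and 56.0 CPM with withdrawal; it was 2.07-fold lower (1.85 to 2.31) at 48 h of withdrawal, the lowest ratio of the set there, and 1.09-fold lower (0.992 to 1.19) at 48 h of brequinar. Bub3, which anchors BUB1 and BUBR1, stood at 35.2, 28.3, 30.0, 34.5 and 43.2 CPM with brequinar, highest at 48 h, and stood at 33.8, 30.6, 31.0, 32.9 and 25.5 CPM with withdrawal.

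The spindle genes differed from the entry genes early in the brequinar arm: their median log2 ratio was 0.05 at 6 h of brequinar where that of entry genes was -0.46. Nusap1, which bundles microtubules near chromosomes, stood at 68.7, 71.2, 95.9, 211 and 177 CPM with brequinar and 71.0, 109.9, 97.8, 77.1 and 108 CPM with withdrawal. It had the largest ratio at 24 h of brequinar, 3.07-fold higher (2.89 to 3.27), and was the 1 gene called higher at 48 h of withdrawal, 1.51-fold higher (1.38 to 1.66). Per cell it was lower there, with 0.766 UMIs against 0.978 at 0 h. Tpx2, which activates Aurora A on the spindle, was 1.43-fold higher (1.35 to 1.51) at 6 h of brequinar and 1.48-fold higher (1.40 to 1.56) at 6 h of withdrawal, so it was higher early in both arms. Kif11, the motor that pushes spindle poles apart, was 1.46-fold higher (1.38 to 1.54) at 12 h and 1.86-fold higher (1.77 to 1.96) at 24 h of brequinar. Kif2c, a motor that takes microtubules apart at centromeres, stood at 32.7, 27.2, 38.2, 58.0 and 62.4 CPM with brequinar and 34.8, 40.5, 33.5, 22.9 and 23.2 CPM with withdrawal, 1.78-fold higher (1.61 to 1.96) at 24 h of brequinar and 1.52-fold lower (1.33 to 1.74) at 24 h of withdrawal.

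Hmmr, a spindle protein that also binds hyaluronan, was lower at 12 h of brequinar, 1.52-fold lower (1.43 to 1.62), and was 1.42-fold higher (1.33 to 1.53) at 48 h. Ckap2, a microtubule-binding protein of the spindle, stood at 28.6, 22.9, 33.4, 42.0 and 41.4 CPM with brequinar and 30.4, 26.1, 26.6, 18.0 and 20.0 CPM with withdrawal and had the lowest ratio of the set at 24 h of withdrawal, 1.69-fold lower (1.46 to 1.96). Its relative Ckap2l was 1.67-fold higher (1.49 to 1.87) at 24 h of brequinar. Ckap5, a microtubule polymerase, and Tacc3, its partner at the spindle, were 1.46-fold higher (1.37 to 1.56) and 1.20-fold higher (1.14 to 1.27) at 24 h of brequinar. Of the 9 spindle genes, 5 were called higher at 24 h and 5 at 48 h of brequinar, beside 29.2% and 25.7% of all genes.

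The midzone and cytokinesis genes had the highest share of calls at 24 h of brequinar, with 6 of 7 measured genes higher, and again 6 of 7 at 48 h, beside 29.2% and 25.7% of all genes. Gas2l3, which links actin and microtubules in the late spindle, stood at 29.0, 21, 36.2, 72.8 and 88.8 CPM with brequinar and 29.4, 39.9, 40.0, 33.1 and 37.2 CPM with withdrawal, 2.51-fold higher (2.27 to 2.78) at 24 h and 3.06-fold higher (2.70 to 3.47) at 48 h of brequinar. Prc1, which bundles the antiparallel microtubules of the midzone, stood at 32.7, 41.1, 48.5, 68.0 and 83.3 CPM with brequinar and 36.8, 57.7, 49.8, 29.6 and 28.1 CPM with withdrawal, 2.08-fold higher (1.89 to 2.30) and 2.55-fold higher (2.25 to 2.88) at the same times. Prc1 was also 1.57-fold higher (1.41 to 1.74) at 6 h of withdrawal, where Prc1 and Nusap1 were the 2 genes called higher, though neither was per cell. Kif23, the motor of the centralspindlin complex, was 1.84-fold higher (1.69 to 2.02) at 24 h of brequinar, and Kif4, a chromosome and midzone motor, was 1.76-fold higher (1.59 to 1.95).

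Anln, an actin-binding protein of the contractile ring, and Ect2, the exchange factor that activates RhoA there, were 1.76-fold higher (1.60 to 1.94) and 1.53-fold higher (1.40 to 1.67) at 24 h of brequinar. At 48 h of withdrawal Ect2 was 1.66-fold lower (1.41 to 1.95). Kif20b, a midzone motor, was 1.35-fold higher (1.29 to 1.42) at 24 h of brequinar, the 1 measured gene of this role below 1.5-fold, and 1.55-fold lower (1.44 to 1.68) at 48 h of withdrawal. Kif20a, its relative, stayed at 4.88 to 12.4 CPM in the 10 conditions, under the 20 CPM limit, and entered no count of genes called higher or lower where that limit was used.

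The chromosomal passenger genes had 1 of 4 called higher at 24 h and 1 at 48 h of brequinar, near the 29.2% and 25.7% of all genes. All 4 were called higher with brequinar than with withdrawal at 48 h on the CPM scale, beside 37.6% of all genes. None of the 4 was with median-of-ratios size factors, beside 19.5% of all genes. Aurkb, the kinase of the complex, stood at 98.5, 78.9, 138, 124 and 140.0 CPM with brequinar and at 12 h was 1.65-fold higher (1.53 to 1.79) than with withdrawal. Birc5, survivin, and Incenp, the scaffold, were 1.37-fold higher (1.33 to 1.41) and 1.52-fold higher (1.44 to 1.61) at 24 h of brequinar. Cdca8, borealin, was 1.60-fold higher (1.51 to 1.70) at 48 h. With withdrawal at 48 h, the 4 genes were lower by 1.18 to 1.35 times, none past 1.5-fold, where 40.7% of all genes were called lower.

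Of the 5 chromosome structure genes, 3, Top2a, Mki67 and Ncapd2, were called higher at 24 h of brequinar, and 1, Mki67, at 48 h. Of all genes, 29.2% and 25.7% were called higher at these times. Top2a, the topoisomerase that untangles sister chromatids, stood at 385, 391, 520.3, 639 and 479 CPM with brequinar and 377, 523, 494, 357 and 309 CPM with withdrawal, 1.66-fold higher (1.61 to 1.71) at 24 h of brequinar and 1.24-fold higher (1.19 to 1.30) at 48 h. Mki67, the Ki-67 protein that coats mitotic chromosomes, stood at 119, 112, 174, 226 and 221 CPM with brequinar and 123, 145, 162, 126 and 134 CPM with withdrawal, 1.89-fold higher (1.80 to 1.99) at 24 h of brequinar and 1.09-fold higher (1.01 to 1.18) at 48 h of withdrawal. Smc2 and Smc4, the condensin core, did not share a course: Smc2 stood at 331, 225, 315, 369.8 and 329 CPM with brequinar and 328, 262, 253, 275 and 208 CPM with withdrawal, and Smc4 at 369, 348, 350.0, 425 and 445 CPM with brequinar and 371, 401, 370.0, 435 and 333 CPM with withdrawal. Smc2 was 1.58-fold lower (1.49 to 1.67) at 48 h of withdrawal, while Smc4 had the largest ratio of the set at 24 h of withdrawal, 1.17-fold higher (1.13 to 1.21). Ncapd2, a regulatory subunit of condensin, was 1.70-fold higher (1.54 to 1.88) at 24 h of brequinar and 1.55-fold lower (1.31 to 1.86) at 48 h of withdrawal.

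Set side by side at matched times, the arms crossed between 12 and 24 h on the CPM scale. Per cell the sum of the set was already above withdrawal at 12 h of brequinar, 66.6 against 62.5 UMIs, with 6 of 47 genes higher and 3 lower beside 27.3% and 3.47% of all genes. At 6 h, 5 of 48 genes were lower with brequinar than with withdrawal and none higher, beside 1.45% and 1.9% of all measured genes; they were Gas2l3, Cdc25c, Cenpf, Plk1 and Nusap1, 1.54 to 1.90 times lower. At 12 h, 7 of 47 were lower and 2 higher, beside 7.33% and 13.2%; the lower ones were Cdc20, Ube2c, Ccnb2, Cenpa, Cenpf, Hmmr and Ccnb1, and the higher ones Pttg1 and Aurkb. At 24 h, 31 of 49 were higher and none lower, beside 29.6% and 8.05%. At 48 h, 41 of 49 were higher and none lower, beside 37.6% and 8.57%. The largest ratios at 48 h were those of Prc1, 2.96-fold higher (2.49 to 3.53), and Aurka, 2.75-fold higher (2.45 to 3.10), and the smallest that of Ndc80, 1.13-fold higher (0.933 to 1.36). With median-of-ratios size factors 20 of 49 were higher at 48 h, beside 19.5% higher and 17.9% lower among all genes, and the median of all genes moved from 0.34 to 0.02. At a mark of 2-fold 10 of 49 were higher at 24 h and 15 of 49 at 48 h, beside 13.6% and 17.2% of all genes.

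A culture's level can come from many cells with some of this RNA or from few cells with much, and the single cells separate these. Each cell was thinned to 2500 UMIs, shallower cells were left out (13 to 249 per condition), and the UMIs of the 50 genes were summed per cell. The median was 14, 11, 15, 24 and 26 UMIs with brequinar and 15, 14, 11, 12 and 4 with withdrawal. The 90th percentile was 30, 29, 24, 35 and 42.6 with brequinar and 31, 38, 37, 30 and 32 with withdrawal. At this equal depth the whole distribution thus lay higher at 24 h of brequinar, with a 10th percentile of 13 UMIs against 5 at 0 h. At 48 h of withdrawal, in contrast, the median was low and the 90th percentile near that of 0 h. Without thinning, the set took a median of 0.531, 0.454, 0.617, 0.957 and 1.07% of a cell's UMIs with brequinar. With withdrawal it took 0.554, 0.527, 0.419, 0.469 and 0.150%. In UMIs per cell without thinning, the median was 64, 108 and 111 at 0, 24 and 48 h of brequinar. The 90th percentile in these UMIs was 223, 164 and 182.6, so it was lower at 24 and 48 h than at 0 h. At 0 and 48 h of withdrawal it was 233 and 143.

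Cells with 31 or more of 2500 UMIs from the set, the 90th percentile of the pooled 0 h cells, were counted as rich; this is a range and not a cell type. With brequinar they made up 9.78% (8.22 to 11.5) of cells at 0 h and 8.75% (7.16 to 10.6) at 6 h. They were rarest at 12 h, 2.42% (1.66 to 3.39), and more frequent at 24 h, 21.6% (19.5 to 23.8), and 48 h, 36.1% (32.0 to 40.4). With withdrawal they made up 10.7% (9.03 to 12.7) at 0 h, 18.3% (16.0 to 20.7) at 6 h and 18.5% (16.2 to 21.1) at 12 h, and then 9.70% (8.05 to 11.6) at 24 h and 11.3% (9.26 to 13.5) at 48 h. At 12 h rich cells were therefore scarce under brequinar and frequent under withdrawal, where they were about as frequent at 6 h. Even so, the median cells of the 12 h cultures held 15 UMIs with brequinar and 11 with withdrawal. Of all UMIs of the set, rich cells held 5.41% at 12 h and 57.9% at 48 h of brequinar, and 46.0% and 40.9% at these times of withdrawal. Cells within 2 UMIs of the limit numbered 34 to 211 per condition, and doublets were removed only by the authors' barcode calls. Before thinning, rich cells had a median of 18380.5 UMIs and other cells 15406 at 0 h of the brequinar arm, 11081 and 11578 at 24 h of brequinar, and 10857 and 6424 at 48 h of withdrawal; the part of cell size or of 2 cells under 1 barcode was not tested.

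**Figure D3:**
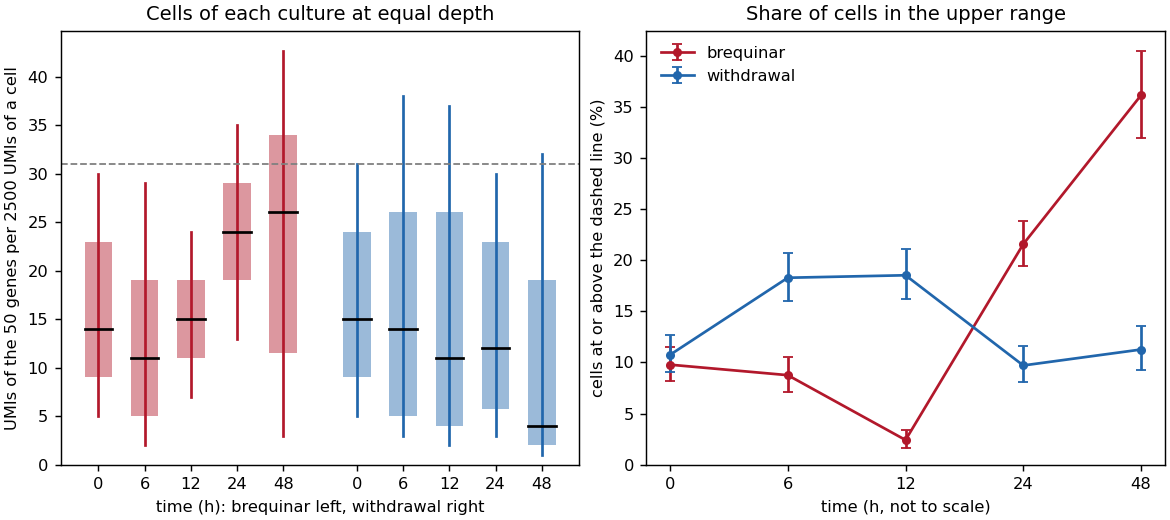
Left, UMIs of the 50 genes per cell after thinning to 2500 UMIs, by condition, with the median, a box for the 25th to 75th percentile and a line for the 10th to 90th; the dashed line marks 31 UMIs. Right, percent of cells at 31 UMIs or more, with exact 95% binomial intervals; the 12 h brequinar culture is lowest at 2.42% and the 48 h brequinar culture highest at 36.1%.

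At 48 h of withdrawal the neutrophil markers were in a part of the cells, and cells rich in the 50 genes held them in a similar share to the rest. Cells with 25 or more of 2500 UMIs from the 8 markers, a limit set after these data had been seen, were 50 of 100 cells, 50.0% (39.8 to 60.2) among the rich and 396 of 788 cells, 50.3% (46.7 to 53.8) among the others. Barcodes of 2 to 100 UMIs carried the 8 markers at 3308 CPM in sum, under that limit. Cells with 25 or more UMIs of the myeloid progenitor markers were 48 of 100 cells, 48.0% (37.9 to 58.2) among the rich and 190 of 788 cells, 24.1% (21.2 to 27.3) among the others, so these intervals did not overlap. At 24 h of brequinar the order was the other way, with 103 of 309 cells, 33.3% (28.1 to 38.9) and 554 of 1124 cells, 49.3% (46.3 to 52.3). At 0 h the shares were close, 39 of 128 cells, 30.5% (22.6 to 39.2) and 370 of 1181 cells, 31.3% (28.7 to 34.1) in the brequinar arm. At 48 h of brequinar the share was again larger among the rich, 127 of 186 cells, 68.3% (61.1 to 74.9), than among the others, 174 of 329 cells, 52.9% (47.3 to 58.4). The same order held at 24 h of withdrawal, with 98 of 111 cells, 88.3% (80.8 to 93.6) and 801 of 1033 cells, 77.5% (74.9 to 80.1), so the order did not separate the arms. These shares follow mostly 2 markers and are not shares of a cell type: at 48 h of withdrawal Prtn3 held 5169 and Ctsg 1815 of 8835 CPM. Kit, Cd34 and Flt3 stood at 21.9, 12.4 and 6.27 CPM there, against 121, 138 and 89.0 CPM at 0 h of withdrawal. Mpo, Ctsg and Cebpa were also lower there than at 0 h, and Elane, Prtn3, Spi1 and Ptprc were higher.

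The genes also differed in how far their RNA was gathered in the same cells. For each gene, the 10% of cells with most UMIs of the other 49 genes were taken, and the percent of the gene's own thinned UMIs in them was computed where it had 50 or more; an even spread would give 10%. The median over genes was 18.3, 22.8, 14.8, 13.0 and 17.6% with brequinar and 18.9, 21.4, 24.7, 20.0 and 32.9% with withdrawal, lowest at 24 h of brequinar and highest at 48 h of withdrawal. At 0 h of the brequinar arm the values ran from 8.89% for Pttg1 to 30.3% for Cenpf. Nusap1 reached 46.8% at 6 h of brequinar, against 23.9% at 0 h, and 17.7% at 24 h, when its level was highest. Ccnb1 reached 45.2% at 48 h of withdrawal, against 20.5% at 0 h. Pttg1 stood at 13.3% there, the lowest of the 36 genes with 50 or more UMIs. The median of that culture rests on these 36 genes, where the other conditions had 46 to 49.

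**Figure D4:**
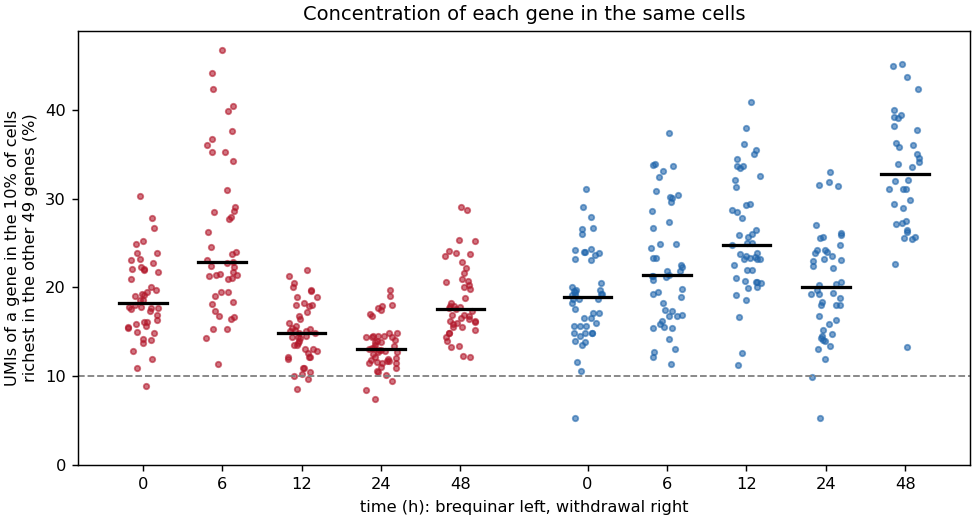
Percent of a gene's thinned UMIs found in the 10% of cells of the condition that are richest in the other 49 genes, by hours of brequinar or withdrawal; each dot is 1 gene with 50 or more UMIs, the bar is the median over genes and the dashed line marks 10%, an even spread. Medians run from 13.0% at 24 h of brequinar, over 49 genes, to 32.9% at 48 h of withdrawal, over 36 genes.

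A further 95 genes of mitosis, outside the 50, were counted in the same way. At 24 h of brequinar 30 of 77 measured genes were higher and none lower, and at 48 h 17 of 78 were higher and 5 lower. All genes had 29.2% higher and 13.8% lower at 24 h, and 25.7% and 17.3% at 48 h, so at 48 h both shares of these genes were below those of all genes. The highest at 24 h were Sgo2a, a shugoshin that protects centromeric cohesion, 2.33-fold higher (2.02 to 2.68), Dlgap5, a spindle protein, 2.32-fold higher (2.11 to 2.54), and Mad2l1bp, which takes MAD2 off its complexes, 2.26-fold higher (1.97 to 2.61). The lowest were Tuba1b, 1.41-fold lower (1.35 to 1.47), Tuba1c, 1.33-fold lower (1.23 to 1.44), and Cenpw, 1.26-fold lower (1.21 to 1.31); the alpha-tubulin genes are near copies, so their counts may be shared. At 48 h the highest were Troap, 2.53-fold higher (2.12 to 3.0), Mad2l1bp, 2.49-fold higher (2.07 to 2.98), and Sgo2a, 2.27-fold higher (1.88 to 2.74). The lowest there were Stag1, a cohesin subunit, 1.79-fold lower (1.51 to 2.13), Zwint, a kinetochore protein, 1.69-fold lower (1.54 to 1.86), and Tuba1b, 1.59-fold lower (1.49 to 1.70).

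With withdrawal, none of 68 of these genes was higher and 4 were lower at 24 h, and at 48 h 3 of 69 were higher and 31 lower. All genes had 9.46% higher and 11.9% lower at 24 h, and 21.5% and 40.7% at 48 h. The share of lower genes at 48 h was thus near that of all genes, and the share of higher genes below it. The highest at 24 h were Cdkn3, a phosphatase that acts on CDKs, 1.32-fold higher (1.23 to 1.41), Ncapd3, a condensin subunit, 1.30-fold higher (1.21 to 1.40), and Mis12, a kinetochore protein, 1.23-fold higher (1.05 to 1.44). The lowest were Stmn1, stathmin, 1.67-fold lower (1.63 to 1.71), the kinase Nek2, 1.59-fold lower (1.36 to 1.86), and Aspm, a spindle pole protein, 1.57-fold lower (1.37 to 1.79). At 48 h Cdkn3 was 1.66-fold higher (1.54 to 1.80), Mad2l1bp 1.52-fold higher (1.25 to 1.85) and Depdc1a 1.52-fold higher (1.25 to 1.83). The lowest at 48 h were Nek2, 2.67-fold lower (2.07 to 3.50), Haus1, a subunit of the augmin complex, 2.57-fold lower (2.20 to 3.03), and Cks1b, 2.40-fold lower (2.28 to 2.52), a relative of Cks2, which itself was 1.14-fold lower (1.07 to 1.21).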

How the data were processed

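Single-cell RNA was measured in 10 cultures of 63.3 cells pooled with MULTI-seq barcodes, per the labels. As deposited by the authors, the files hold raw UMI counts of each gene in each cell barcode as spliced and unspliced matrices, with both runs in 1 matrix and runs not marked; a barcode found in both would be counted as 1 cell. Cell Ranger, kallisto 0.46 and bustools 0.39.4 are listed in the submitters' processing notes with no role for each. The genome build is not given in the sources used here, nor is the annotation. Of 15582 distinct annotated barcodes, the 2777 doublets and 265 negatives that the authors called were left out, the latter with 26 barcodes listed more than once. The 12540 singlets hold 134068354 of 209704818 spliced UMIs. Of 54838 gene IDs, 54723 were given a symbol, and IDs sharing a symbol were summed.

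The members, lists and limits were chosen with earlier results of these data known. Counts were summed per condition and scaled to 1000000 UMIs (CPM); folds are ratios of CPM with exact conditional binomial 95% intervals, and medians use log2 of CPM plus 5. The 2 runs repeat 1 pool and cells are not replicates, so no test was run. All 50 genes were reported by role, and of 95 other mitosis genes the 3 highest and 3 lowest at 24 and 48 h were named. The unspliced matrix was not used, since its barcodes are not paired with cells here. Ratios and intervals were tested on simulated data. Alternatives were median-of-ratios size factors, UMIs per cell, no limit on low levels, cells under 10% mitochondrial UMIs, leaving out the 2% of cells with most UMIs, a 2-fold mark, thinning to 5000 UMIs and the 80th percentile. Python 3.11.15, numpy 2.4.6, scipy 1.17.1, pandas 2.3.3 and matplotlib 3.10.9 were used.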

Additional observations from a re-analysis of the deposited data

How the results depend on the processing

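Every condition is 1 culture, so intervals cover counting error only, and no culture, run or replicate was left out or paired. The 3′ UMI counts do not separate splice forms, and near copies are counted as listed. Genes near 20 CPM, such as Cdc25c and Ttk, have the widest intervals.

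On UMIs per cell in place of CPM, the genes higher came to 0, 7 and 6 at 12, 24 and 48 h of brequinar. They came to 0 at 6 and 48 h of withdrawal, and to 6 between the arms at 12 h. Of all genes, 4.28, 18.7 and 14.2% were higher at these times of brequinar and 2.70 and 9.16% at those of withdrawal. Between the arms at 12 h it was 27.3%. The counts on UMIs per cell were of 47 to 49 genes. The genes lower came to 22, 14, 2 and 1 at 6, 12, 24 and 48 h of brequinar, 16, 33, 28 and 47 at these times of withdrawal, and 2 and 3 for brequinar against withdrawal at 6 and 12 h. At a 2-fold mark, the genes higher came to 0, 4 and 6 at 12, 24 and 48 h of brequinar. Of all genes, 3.52, 14.7 and 14.4% were higher there. With withdrawal 0 were higher at both 6 and 48 h, beside 3.40 and 14.8%. For brequinar against withdrawal 0, 10 and 15 were higher at 12, 24 and 48 h, beside 3.84, 13.6 and 17.2%. The genes lower came to 0 and 1 at 6 and 12 h of brequinar, beside 0.547 and 0.75%. With withdrawal 0 and 1 were lower at 24 and 48 h, beside 3.09 and 24.8%. For brequinar against withdrawal 0 and 1 were lower at 6 and 12 h, beside 0.153 and 2.05%. With median-of-ratios size factors 1 gene was lower at 24 h of brequinar, 2 were lower at 24 h of withdrawal, 2 lower and 3 higher at 48 h of withdrawal, and 20 higher for brequinar against withdrawal at 48 h. With cells under 10% mitochondrial UMIs, 2 genes were higher at 12 h of brequinar, beside 13.4% of all genes. Without the 2% of cells with most UMIs, 7 were lower at 6 h of brequinar, beside 4.98%. With no limit on low levels every count stayed within 1.5 times the main one. The rich share was 21.3% at 12 h and 14.8% at 48 h of withdrawal when thinned to 5000 UMIs; from the 80th percentile it was 22.0, 14.2, 9.14, 47.8 and 55.0% with brequinar and 22.8, 26.8, 27.7, 20.4 and 18.2% with withdrawal, so the 12 h brequinar culture was again the lowest and the 48 h one the highest. The cause of these moves was not tested, beyond what the scale and limits themselves fix.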
